A study of Arabidopsis thaliana with 9 samples.

Results

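The transcriptome of unstressed p5cs1-4 seedlings was set against that of unstressed wild-type seedlings of Arabidopsis thaliana. The p5cs1-4 mutant carries an insertion in P5CS1, which encodes the enzyme that commits glutamate to proline. The comparison uses 2 of the 9 libraries of the series, chosen by their labels as p5cs1-4 control and WT control (Col-0), and every one of the 33518 genes in their tables. The remaining libraries are the aba2-1 mutant, deficient in abscisic acid, on the same control plates, and all 3 genotypes labelled stress (-1.2 MPa, polyethylene glycol) or labelled release (10 h back on control medium). Seedlings of both control libraries grew for 7 days under continuous light at 23 °C on agar without added sugar, went to fresh control plates at -0.25 MPa, and were collected after 96 h. RNA of 3 experiments was pooled into 1 library a genotype, so a difference between the libraries has no replicate check and no p-value is given. The intervals printed are exact 95% intervals that cover counting error only.

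Proline is made from glutamate in the cytosol and plastid by P5CS and P5CR enzymes, and is oxidised back to glutamate in mitochondria by PRODH and P5CDH enzymes. In Arabidopsis P5CS1 is known for the proline that builds up under water shortage, and its paralog P5CS2 for the proline that dividing tissues need. Synthesis uses NADPH and breakdown feeds electrons to mitochondrial respiration, which is why mutants of the cycle have been studied for redox and energy metabolism as well as for drought.

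Sequencing gave 18273148 reads on genes in p5cs1-4 control and 4898426 in WT control, a ratio of 3.73. Levels are given in CPM, read counts divided by library size with TMM factors, and 5 CPM was about 84.9 reads in p5cs1-4 control and 21.5 reads in WT control. Log2 ratios are of CPM + 1, p5cs1-4 over WT. Markers of leaf and root had reads in both libraries, but only 5 of 18 root markers passed 5 CPM in either, against 9 of 12 leaf and shoot markers. The root part of a label of whole seedlings is thus checked only weakly. The 12 leaf and shoot markers summed to 21951 CPM in p5cs1-4 control and 26419 CPM in WT control, and the 18 root markers to 170 and 139 CPM. The root hair genes EXPA7 and COBL9 were at 0.53 and 1.12 CPM in p5cs1-4 control, against 0 and 1.40 CPM in WT control. Flower markers summed to 11.8 CPM in p5cs1-4 control and 10.0 CPM in WT control, and seed markers to 2.24 and 0.47 CPM. In RNA of whole seedlings, fewer cells of a type and less RNA per cell cannot be told apart.

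The targeted gene P5CS1 (AT2G39800, chromosome 2, 16598072 to 16603319, minus strand, TAIR10.1) had reads in both control libraries. It stood at 125 CPM (120 to 131) in p5cs1-4 control, from 2125 reads, and at 195 CPM (182 to 209) in WT control, from 838 reads. The mutant was thus lower 1.56-fold (1.44 to 1.69), which is under the 2-fold limit. The table sums reads over the whole gene, so transcript before and after the insertion cannot be separated, and P5CS1 checks the genotype label only in part. The other control library, aba2-1, held 634 CPM, so the spread of P5CS1 between control plates of the series was wider than the step between p5cs1-4 and WT. Of the 30 genes in the table from AT2G39700 to AT2G39900, which surround P5CS1, 18 passed 5 CPM and 0 were 2-fold apart.

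The remaining synthesis genes had nearly the same level in both libraries. P5CS2 stood at 147 CPM in p5cs1-4 control and 151 CPM in WT control, a fold of 0.975 (0.894 to 1.07). P5CR, the last enzyme of the pathway, stood at 108 CPM in both, a fold of 1.00 (0.904 to 1.11). OAT, which makes the intermediate from ornithine, stood at 29.8 CPM in p5cs1-4 control and 31.7 CPM in WT control. No compensating difference in these 3 genes was detectable beyond counting error.

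Breakdown and transport genes were lower or equal, LHT1 excepted. PRODH1, the main proline dehydrogenase, stood at 125 CPM in p5cs1-4 control and 187 CPM in WT control, a fold of 0.667 (0.614 to 0.724). Background knowledge has PRODH1 rise when stressed plants are given water again, yet it held 240 CPM in p5cs1-4 and 188 CPM in WT among libraries labelled stress, and 20.1 CPM in p5cs1-4 and 25.5 CPM in WT among those labelled release, so those treatments are called here by their label only. AT5G38710, annotated with proline dehydrogenase activity, stood at 8.96 CPM in p5cs1-4 control and 15.1 CPM in WT control, 1.69-fold (1.24 to 2.27) lower. P5CDH, the second oxidation step, stood at 56.4 CPM in p5cs1-4 control and 54.5 CPM in WT control. Among the carriers, PROT1 was equal at 22.3 CPM in p5cs1-4 control and 22.1 CPM in WT control. PROT2 was 1.98-fold (1.63 to 2.39) lower, at 19.6 CPM in p5cs1-4 control against 38.7 CPM in WT control. PROT3 was 2.54-fold (1.51 to 4.22) lower, with 42 reads in p5cs1-4 control and 27 reads in the shallower WT control, and was the only proline gene past 2-fold. LHT1, a broad amino acid importer, stood at 14.0 CPM in p5cs1-4 control and 10.0 CPM in WT control. For PROT2 and PROT3 the WT control was the highest of the 9 libraries. The PROT2 level was 22.1 CPM in p5cs1-4 and 20.9 CPM in WT among the libraries labelled stress, and 19.99 CPM in p5cs1-4 and 19.0 CPM in WT among those labelled release, so the genotypes stood close together there.

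Across the transcriptome, 16246 genes reached 5 CPM in either library. Of these, 620 were at least 2-fold higher in p5cs1-4 control (3.82%) and 437 at least 2-fold lower (2.69%), 1057 genes in all (6.51%), and the median log2 ratio was 0.00. The same rule called 981 genes higher (5.94%) and 1079 lower (6.53%) between the libraries labelled stress, 12.5% in all, and 294 higher (1.8%) and 218 lower (1.33%) between those labelled release, 3.13% in all. The control plates thus lay between the other treatments in the number of genes apart. The fold of every called gene in the control had a counting interval that left out 1. At these depths the 5 CPM floor and the 2-fold rule bring this about, so it is no further check. Most called genes were weakly expressed: the median of the higher level was 10.9 CPM among the higher genes and 15.6 CPM among the lower ones. Only 47 genes were at least 4-fold higher and 38 at least 4-fold lower. Of the 17 genes at least 8-fold apart, 13 drew at least 0.5 of their reads from places shared with other genes and are uncertain.

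**Figure D1:**
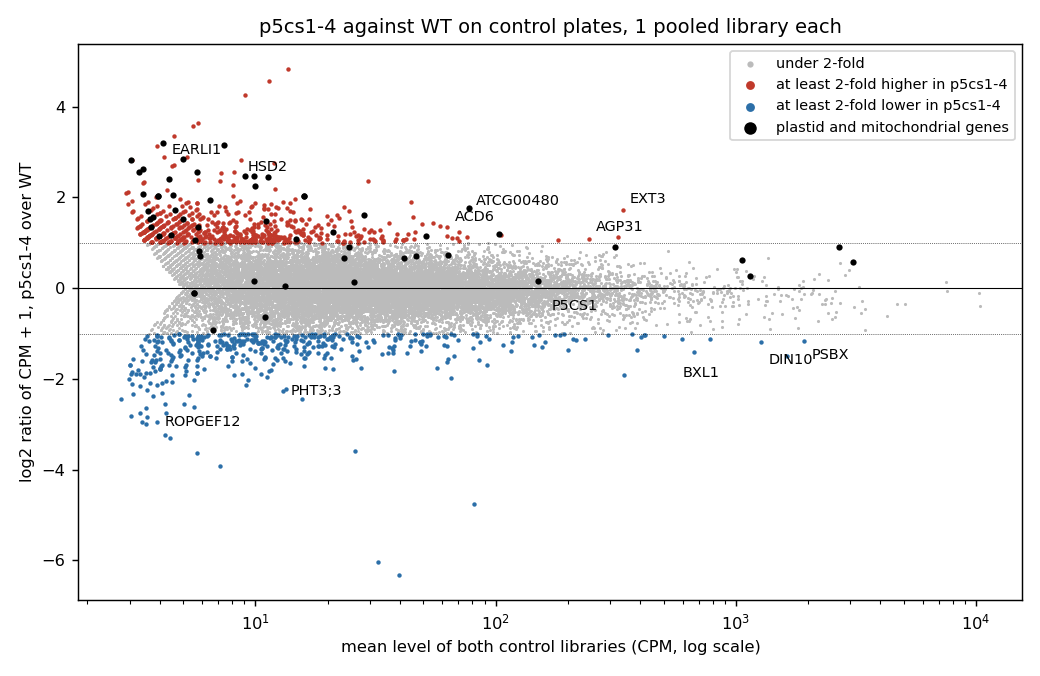
Log2 ratio of CPM + 1, p5cs1-4 over WT, against the mean level of the 2 control libraries in CPM (log scale), 1 point for each of 16246 genes. Points past the dotted lines are at least 2-fold apart: 620 above and 437 below, black points are plastid and mitochondrial genes, and the cloud narrows to the right as levels increase.

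The balance of higher and lower genes turned with the level of expression. Among the 2493 genes whose higher level lay between 5 and 10 CPM, 280 were higher in p5cs1-4 control and 142 lower. Between 20 and 50 CPM the counts were 100 higher and 89 lower, and between 100 and 500 CPM 7 higher and 30 lower. Of the 260 genes at 500 CPM or more, 1 was higher and 12 were lower. Median log2 ratios ran the same way, 0.20 in the lowest of these bands and -0.15 in the highest. With a floor of 20 CPM in place of 5 CPM, 132 genes were higher (1.28%) and 174 lower (1.68%), so the excess of higher genes lay among genes that stayed under 20 CPM. Among genes of at least 20 CPM, those under 1 kb long had 33 higher and 60 lower, and those of 2 kb or longer 28 higher and 35 lower. The part of depth and of gene length in these counts was not tested.

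**Figure D2:**
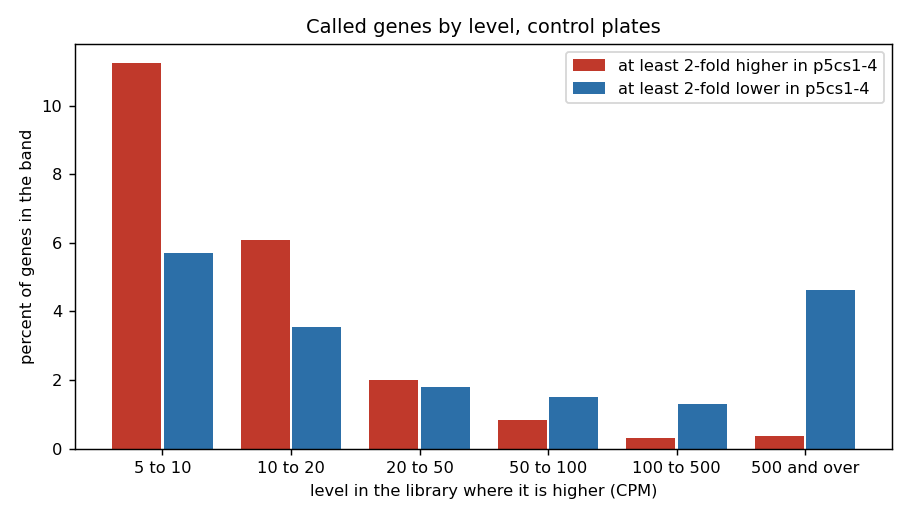
Percent of genes called at least 2-fold higher or lower in p5cs1-4 control, by the level in the library where the gene is higher (CPM). Higher genes outnumber lower ones below 50 CPM, 280 against 142 in the lowest band, and lower genes outnumber higher ones above it, 12 against 1 in the highest band.

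Set among all 9 libraries, it was mostly the WT control that stood at the end of the range. Of the 620 genes higher in p5cs1-4 control, p5cs1-4 control was the highest of the 9 libraries for 120 (19.4%), while WT control was the lowest for 465 (75.0%). Of the 437 lower genes, p5cs1-4 control was the lowest of the 9 for 73 (16.7%), while WT control was the highest for 330 (75.5%). Among all 16246 genes, p5cs1-4 control was highest for 9.90% and lowest for 5.80%, and WT control was highest for 21.0% and lowest for 18.6%. A call between 2 libraries favours the ends of the range in both of them, yet the WT end was reached about as often for higher as for lower genes and far more often than the p5cs1-4 end. WT control was also the shallowest library, and the part of its depth was not tested.

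**Figure D3:**
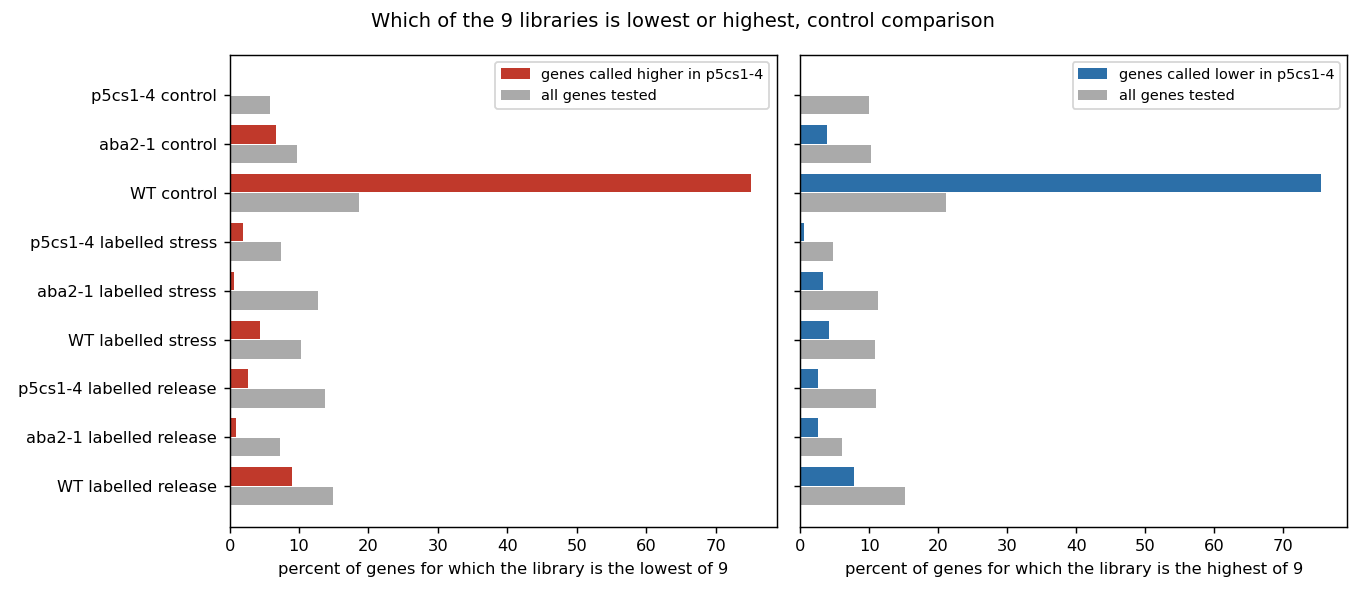
For each of the 9 libraries, the percent of genes for which it is the lowest (left, genes called higher in p5cs1-4 control) or the highest (right, genes called lower), beside the percent among all genes tested in grey. WT control stands out in both panels, at 75.0% and 75.5%, against 18.6% and 21.0% of all genes.

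The 6 most strongly expressed nuclear genes with a symbol that were lower in p5cs1-4 control included genes of photosynthesis and of sugar transport. PSBX, a small subunit of photosystem II, stood at 1190 CPM in p5cs1-4 control and 2655 CPM in WT control, 2.23-fold (2.18 to 2.28) lower. DIN10, a raffinose synthase-like gene first known as induced by darkness, stood at 778 CPM in p5cs1-4 control and 1777 CPM in WT control, 2.28-fold (2.22 to 2.35) lower. BXL1, a cell wall xylosidase, stood at 367 CPM in p5cs1-4 control and 970 CPM in WT control, 2.64-fold (2.54 to 2.75) lower. All 3 were also lower in p5cs1-4 in the other treatments, which use other libraries. PSBX stood at 741 CPM in p5cs1-4 and 2253 CPM in WT labelled stress, and at 431 CPM in p5cs1-4 and 1037 CPM in WT labelled release. DIN10 stood at 552 CPM in p5cs1-4 and 1910 CPM in WT labelled stress, and at 151 CPM in p5cs1-4 and 365 CPM in WT labelled release. BXL1 stayed near 380 CPM in every p5cs1-4 library, between 367 and 390 CPM, whereas WT labelled stress held 921 CPM and WT labelled release 638 CPM.

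The other 3 of this group followed the same pattern. CAO, here the locus AT2G47450 of the chloroplast signal recognition particle, stood at 376 CPM in p5cs1-4 control and 819 CPM in WT control. STP1, a hexose importer whose transcript is known to be repressed by sugar, stood at 326 CPM in p5cs1-4 control and 679 CPM in WT control. BT2, a BTB and TAZ domain protein of nitrate and sugar responses, stood at 274 CPM in p5cs1-4 control and 563 CPM in WT control. With the 3 genes above, all 6 were lower in p5cs1-4 in each treatment, by 2-fold or more for 6 in labelled stress and 2 in labelled release. In aba2-1 control, which is set against the same WT library, they stood at 1613 (PSBX), 764 (DIN10), 428 (BXL1), 658 (CAO), 177 (STP1) and 236 CPM (BT2), below WT control for each.

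Low-energy genes, which plants switch on when sugar or light runs short through SnRK1 kinase and bZIP factors, formed the list with the most calls. Of 17 genes, 15 were past 5 CPM, and of these 0 were higher and 5 lower by at least 2-fold, beside 3.82% and 2.69% of all genes. The list median was -0.60 against 0.00 over all genes, and 13 of the 15 were below 0, against 49.6% of all genes. No other of the 38 lists had 3 or more members called in 1 direction. The lists were chosen with earlier results of these data known, so this rank is a description only. Summed over the 17 genes, the list held 2002 CPM in p5cs1-4 control, 3933 CPM in WT control and 1765 CPM in aba2-1 control. A low sum beside WT control was thus not particular to p5cs1-4. DIN1 (SEN1) stood at 112 CPM in p5cs1-4 control and 290 CPM in WT control, 2.59-fold (2.41 to 2.79) lower. DIN6 (ASN1), the asparagine synthetase that stores nitrogen when carbon is short, stood at 216 CPM in p5cs1-4 control and 557 CPM in WT control, 2.58-fold (2.45 to 2.71) lower. EXL1 stood at 43.3 CPM in p5cs1-4 control and 96.9 CPM in WT control, 2.24-fold (1.98 to 2.53) lower. DIN10 was given above. The fifth, BZIP1, was at 29.0 CPM in p5cs1-4 control and 67.5 CPM in WT control, but nearly all of its reads map to more than 1 place, so its value is uncertain.

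The list differed within itself. Among the trehalose phosphate synthase homologues of the list, TPS8 stood at 261 CPM in p5cs1-4 control and 420 CPM in WT control and TPS11 at 153 and 230 CPM, whereas TPS5 stood at 40.8 CPM in p5cs1-4 control and 26.3 CPM in WT control and TPS10 at 73.6 and 63.8 CPM. DIN3 and DIN4, subunits of branched-chain keto acid dehydrogenase, stood at 33.4 and 34.7 CPM in p5cs1-4 control, against 48.9 and 57.5 CPM in WT control. In the other treatments the list median was -0.88 in labelled stress, with 3 of 17 higher and 8 lower beside 5.94% and 6.53% of all genes, and -0.55 in labelled release, with 0 of 15 higher and 2 lower beside 1.8% and 1.33%. DIN1 stood at 38.9 CPM in p5cs1-4 and 260 CPM in WT labelled stress, and at 47.4 CPM in p5cs1-4 and 91.5 CPM in WT labelled release. ASN1 stood at 111 CPM in p5cs1-4 and 226 CPM in WT labelled stress, and at 102 CPM in p5cs1-4 and 135 CPM in WT labelled release.

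**Figure D4:**
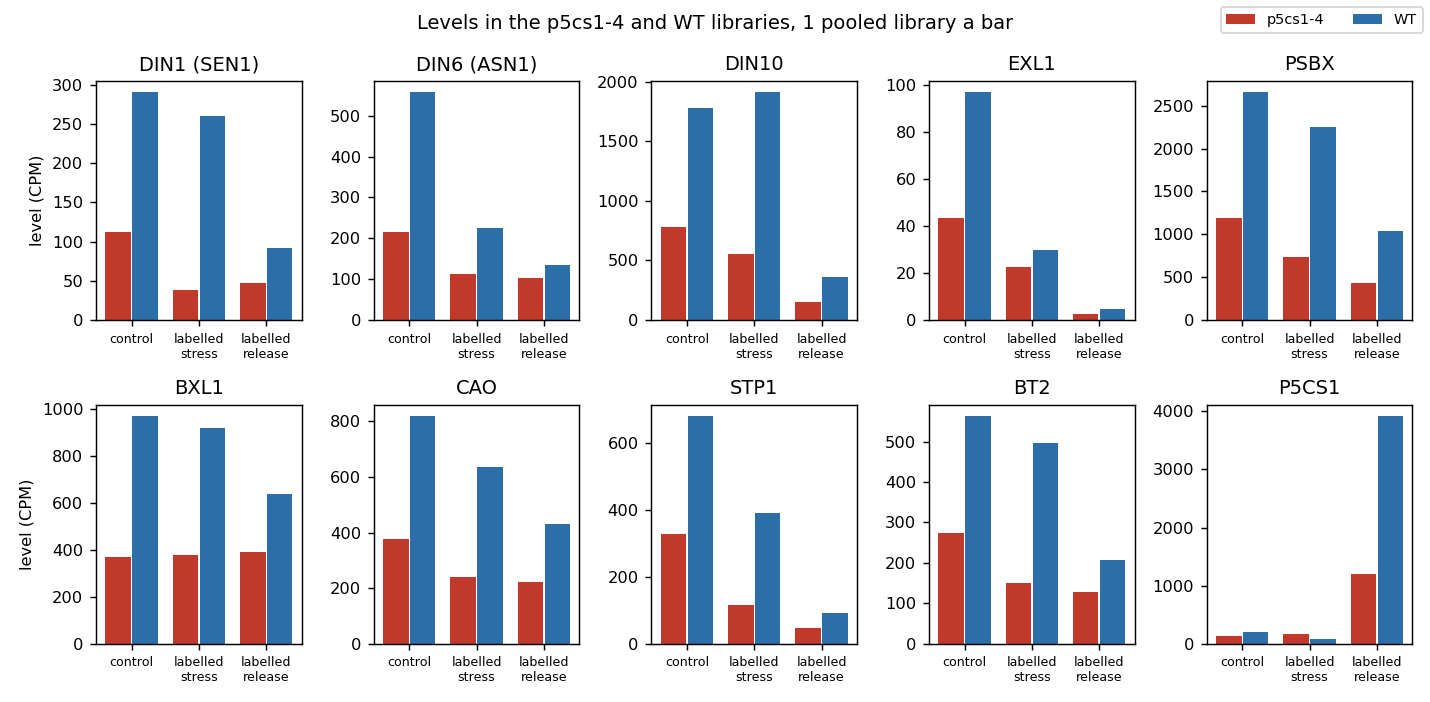
Levels in CPM of 4 low-energy genes, 5 of the strongly expressed lower genes and P5CS1, with p5cs1-4 (red) left of WT (blue) in each treatment, 1 pooled library a bar. Each gene but P5CS1 is lower in p5cs1-4 in all 3 treatments, while P5CS1 is lower in control (125 against 195 CPM) and labelled release and higher in labelled stress.

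The 250 bases before the annotated gene start of ASN1 and DIN10, 2 of the 5 low-energy genes called lower, and of PRODH1 are shown. They were picked because each holds a motif of those searched, on either strand. Capitals mark ACGTG, the core to which bZIP factors bind, and ACTCAT, the element known from the PRODH1 promoter for its response to proline, which was added to the search with the values known. Sequences are from RefSeq, TAIR10.1, 5′ to 3′ on the strand of the gene.
ASN1 (chr3:17441432-17441681, minus strand): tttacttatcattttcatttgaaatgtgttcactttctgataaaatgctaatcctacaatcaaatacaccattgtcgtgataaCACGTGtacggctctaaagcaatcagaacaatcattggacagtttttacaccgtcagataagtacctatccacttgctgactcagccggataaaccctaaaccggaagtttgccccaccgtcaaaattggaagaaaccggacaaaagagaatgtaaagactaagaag
DIN10 (chr5:6833314-6833563, plus strand): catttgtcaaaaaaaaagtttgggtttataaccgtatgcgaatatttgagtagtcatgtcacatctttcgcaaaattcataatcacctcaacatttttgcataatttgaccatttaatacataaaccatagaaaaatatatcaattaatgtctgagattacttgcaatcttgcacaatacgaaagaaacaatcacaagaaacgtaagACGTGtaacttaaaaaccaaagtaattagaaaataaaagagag
PRODH1 (chr3:12451557-12451806, minus strand): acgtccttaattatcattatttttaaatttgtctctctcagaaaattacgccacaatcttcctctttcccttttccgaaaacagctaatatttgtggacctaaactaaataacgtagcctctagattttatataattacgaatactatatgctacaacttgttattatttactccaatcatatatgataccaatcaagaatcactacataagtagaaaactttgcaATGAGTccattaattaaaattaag
In ASN1 the capitals are the palindrome CACGTG, which holds ACGTG on both strands, and in PRODH1 they are ACTCAT on the opposite strand, 24 bases before the gene start. DIN10 has ACGTG 43 bases before its gene start. The other called low-energy genes, DIN1 (SEN1), EXL1 and BZIP1, hold neither motif in that window. P5CDH, at 56.4 CPM in p5cs1-4 control and 54.5 CPM in WT control, also holds ACTCAT.

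Shares of promoters with each motif are given as a description, with no test. Of the 15883 promoters of nuclear protein-coding genes past 5 CPM, 23.65% held ACGTG and 11.7% ACTCAT, and of all 27437 such promoters 22.9% and 12.3%. Among genes called higher in p5cs1-4 control, 128 of 561 promoters held ACGTG (22.8%) and 62 held ACTCAT (11.1%). Among genes called lower, 117 of 404 held ACGTG (29.0%) and 60 held ACTCAT (14.9%), both above the shares of genes past 5 CPM. Of the 17 low-energy genes, 5 held ACGTG and 2 held ACTCAT. The palindrome CACGTG, which is counted within ACGTG, was in 6.95% of promoters of higher genes and 8.42% of those of lower genes, against 7.66% of those of genes past 5 CPM. In the same order, GCCGCC was in 3.03% and 1.98%, against 1.96%, TTGACC in 12.8% and 10.4%, against 11.9%, and CCGAC in 13.9% and 9.41%, against 13.2%.

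Nuclear genes of the photosynthetic apparatus had medians below 0 and were mostly within 2-fold. Of 35 light-harvesting and photosystem genes, 0 were higher and 1 lower by 2-fold (PSBX), beside 3.82% and 2.69% of all genes. Of the 35, 29 were below 0 and 6 above it, and the median was -0.32. Their summed level was 45967 CPM in p5cs1-4 control, 60013 CPM in WT control and 29257 CPM in aba2-1 control. The tissue markers moved as well: 8 of 9 leaf and shoot markers past 5 CPM, some of them photosynthesis genes, were below 0, with a median of -0.25, and 5 of 5 root markers above 0, with a median of 0.23, and their part in this result was not tested. The oxygen-evolving subunit PSBP-1 stood at 2395 CPM in p5cs1-4 control and 4506 CPM in WT control, and the antenna gene LHCB4.2 at 972 and 1816 CPM. All 18 Calvin cycle genes were within 2-fold, 15 of them below 0, with a median of -0.29. They summed to 38167 CPM in p5cs1-4 control, 45054 CPM in WT control and 25395 CPM in aba2-1 control. Genes of 500 CPM or more had a median of -0.15, a shift of the same sign, and members of these lists are mostly strongly expressed. Aquaporins, the water channels, had a median of -0.35, with 0 of 21 past 2-fold in either direction.

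Transcripts of the organelles stood higher in p5cs1-4 control. Of 133 plastid genes 41 were past 5 CPM, and of these 26 were higher and 0 lower, with a median log2 ratio of 1.35. Of 146 mitochondrial genes 15 were past it, and of these 10 were higher and 0 lower, with a median of 1.36. Over all genes, 3.82% were higher and 2.69% lower. A gene past 5 CPM only in p5cs1-4 control can count as higher but not as lower, so these counts and medians lean upward. With no floor, plastid genes together took 1.00% of reads in p5cs1-4 control and 0.587% in WT control, and mitochondrial genes 0.0724% and 0.0345%. The single organelle genes given here are examples picked outside the rule used to name other genes. ATCG00480 stood at 120 CPM in p5cs1-4 control and 34.7 CPM in WT control, 3.47-fold (2.94 to 4.13) higher. ATMG00160 had 140 reads in p5cs1-4 control and 0 in WT control. The exact interval of its fold, p5cs1-4 over WT, had a lower limit of 9.48. With WT control set to 3 reads, the fold would be 11.8, which is not a lower limit. In other libraries of the same genotypes, the medians for the genes past 5 CPM in the control comparison were 2.03 (plastid) and 1.5 (mitochondrial) in labelled stress. In labelled release they were 1.18 and 1.37. In aba2-1 control plastid genes took 0.407% and mitochondrial genes 0.0412% of reads. The libraries were made from RNA selected by its poly(A) tail, which stable organelle transcripts mostly lack, and the part of that selection in these values was not tested.

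Among nuclear genes with a symbol, the strongest increases rested on few WT reads. The 12 highest log2 ratios ran between 1.89 and 2.89, with 1 to 21 reads in WT control, and WT control was the lowest of the 9 libraries for 9 of them. HSD2, a hydroxysteroid dehydrogenase, stood at 16.0 CPM in p5cs1-4 control and 1.40 CPM in WT control, 11.4-fold (5.18 to 31.4) higher. ZPR1, a small protein that inhibits leaf polarity factors of the HD-ZIP III class, stood at 8.66 CPM in p5cs1-4 control and 0.47 CPM in WT control. ZPR1 was also higher in p5cs1-4 in the other treatments, at 8.37 CPM in p5cs1-4 against 2.37 CPM in WT labelled stress, and at 8.36 CPM in p5cs1-4 against 4.02 CPM in WT labelled release. FLS1, the flavonol synthase, stood at 13.6 CPM in p5cs1-4 control and 2.56 CPM in WT control, 5.29-fold (2.90 to 10.7) higher. PUB19, a ubiquitin ligase known to dampen ABA responses, stood at 21.2 CPM in p5cs1-4 control and 4.89 CPM in WT control, and EARLI1, a small protein of the lipid transfer type, at 8.13 and 0.23 CPM. The other members were IRT1 (root iron importer), MAN5 (mannanase), WRKY72 and MYB43 (transcription factors), ARR6 (cytokinin response regulator), ALG10 (a glycosyltransferase of protein glycosylation) and SRO5.

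SRO5 needs care because its gene overlaps that of P5CDH by 905 bases on the opposite strand of chromosome 5 (25097944 to 25099907 for SRO5, 25099003 to 25103312 for P5CDH, TAIR10.1). The pair is known for antisense regulation under salt. SRO5 stood at 20.5 CPM in p5cs1-4 control and 3.73 CPM in WT control, and at 25.6 CPM in p5cs1-4 and 2.76 CPM in WT labelled release. Whether the authors' counting used strand is not given in the sources used here, so reads of the overlap cannot be assigned to either gene.

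Of the 217 higher genes with a symbol, the 6 with the highest levels are given here, 2 of which encode cell wall proteins, while 0 of 20 genes of the cell wall expansion list were past 2-fold. EXT3, an extensin that cross-links the wall, stood at 520 CPM in p5cs1-4 control and 156 CPM in WT control, 3.33-fold (3.08 to 3.61) higher. EXT3 stood at 1247 CPM in p5cs1-4 and 374 CPM in WT labelled stress, and at 2122 CPM in p5cs1-4 and 1399 CPM in WT labelled release. AGP31, an arabinogalactan protein, stood at 334 CPM in p5cs1-4 control, the highest of the 9 libraries, and 156 CPM in WT control. GPAT3, a glycerol phosphate acyltransferase, stood at 94.9 CPM in p5cs1-4 control and 45.6 CPM in WT control, RAB7B, a small GTPase of the vacuolar route, at 89.9 and 41.5 CPM, and MTHSC70-2, a mitochondrial chaperone, at 90.4 and 34.7 CPM. ACD6, an ankyrin protein that amplifies salicylate defence, stood at 87.3 CPM in p5cs1-4 control and 38.7 CPM in WT control, but was lower in p5cs1-4 in both other treatments. In aba2-1 control, EXT3 stood at 809 CPM, AGP31 at 212, RAB7B at 68.3 and MTHSC70-2 at 150 CPM, above WT control for each. GPAT3 at 32.8 and ACD6 at 17.7 CPM were below WT control there. Of the 6, WT control was the lowest of the 9 libraries for 3, and p5cs1-4 control the highest for 3.

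The 12 lowest log2 ratios, between -2.96 and -1.90, belonged to genes of low level in most libraries, and WT control was the highest of the 9 libraries for all 12. ROPGEF12, an activator of ROP GTPases, had 2 reads in p5cs1-4 control and 33 reads in WT control. PHT3;3, a phosphate carrier, stood at 3.83 CPM in p5cs1-4 control and 22.4 CPM in WT control, and at 4.28 CPM in aba2-1 control. WRKY36, a transcription factor, stood at 2.77 CPM in p5cs1-4 control and 15.6 CPM in WT control, and CXE20, a carboxylesterase, at 4.01 and 18.4 CPM. The remaining 8 were GLIP4 (a lipase), GLR2.2 (glutamate receptor-like channel), ERF38, MYB86 and ZFP5 (transcription factors), SAUR28 (auxin-induced small protein), STP11 (hexose importer) and SLY2 (F-box protein of gibberellin signalling), with at most 8 CPM in WT control. Of the 12, 2 were also at least 2-fold lower in labelled stress and 0 in labelled release.

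Over the 38 lists together, 17 of 457 entries past 5 CPM were higher and 19 lower, with ASN1 (DIN6) counted in each of its lists. The higher share was near the 3.82% of all genes, and the lower share was above the 2.69% of all genes. Of the 19 lower entries, 5 were in the low-energy list. Most lists held 0 to 2 calls. Of 11 cytokinin response genes, 2 were higher and 0 lower, beside 3.82% higher of all genes, with a median of 0.34, which was -0.22 over the members past 20 CPM. ARR5 and ARR6, type-A regulators that cytokinin induces, stood at 13.8 and 8.84 CPM in p5cs1-4 control, against 5.12 and 1.63 CPM in WT control. Of 9 auxin response genes, 0 were higher and 2 lower, beside 2.69% lower of all genes, with a median of -0.54. All 16 genes of that list summed to 455 CPM in p5cs1-4 control, 700 CPM in WT control and 206 CPM in aba2-1 control. GH3.3, which conjugates auxin, stood at 20.6 CPM in p5cs1-4 control and 54.5 CPM in WT control, 2.64-fold (2.23 to 3.13) lower, and the repressor IAA3 at 52.1 and 120 CPM. Of 10 gibberellin genes, the receptor GID1A was higher, at 45.9 CPM in p5cs1-4 control and 20.7 CPM in WT control, and AT1G22690 lower, at 55.4 and 112 CPM. Among 13 jasmonate synthesis genes and 11 JAZ repressors 0 were past 2-fold, with medians of -0.31 and 0.24. TAT3, a tyrosine aminotransferase induced by jasmonate, was lower at 21.6 CPM in p5cs1-4 control and 54.0 CPM in WT control. All 13 ethylene genes were within 2-fold, with a median of -0.05.

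Abscisic acid and dehydration genes were mostly within 2-fold, where 3.82% of all genes were higher and 2.69% lower. All 6 synthesis genes and 6 clade A phosphatases past 5 CPM were within 2-fold, with medians of 0.17 and 0.13. CYP707A1, which breaks down abscisic acid, was higher at 11.2 CPM in p5cs1-4 control and 3.96 CPM in WT control. The receptor PYL5 was lower at 36.4 CPM in p5cs1-4 control and 89.4 CPM in WT control, 2.46-fold (2.16 to 2.79). Of 22 dehydration genes, 0 were higher and 2 lower, with a median of -0.34. These 2 were the cold and drought genes KIN1, at 2.89 CPM in p5cs1-4 control and 10.0 CPM in WT control, and KIN2, at 128 and 259 CPM.

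The defence and wound lists held 2 higher genes each, where 3.82% of all genes were higher. Of 14 salicylate and defence genes, 2 were higher and 0 lower, with a median of 0.29: ACD6, given above, and PR2, a glucanase, at 10.4 CPM in p5cs1-4 control and 3.26 CPM in WT control. In camalexin synthesis, CYP71A12 stood at 38.1 CPM in p5cs1-4 control and 10.9 CPM in WT control and CYP71B15 at 8.01 and 2.56 CPM, while CYP71A13, a close paralog of CYP71A12, was lower, at 5.54 and 12.1 CPM. The median of the 4 camalexin genes was 0.49, and -0.28 in deposited RPKM. Of 24 early wound, touch and cold factors, 2 were higher and 0 lower. These were ORA47, a regulator of jasmonate synthesis, at 53.2 CPM in p5cs1-4 control and 19.1 CPM in WT control, and WRKY46 at 22.0 and 10.0 CPM. RAV1, at 136 CPM in p5cs1-4 control and 272 CPM in WT control, lay just inside the 2-fold limit on the log2 scale used.

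Metabolic lists showed single genes rather than groups, beside 3.82% higher and 2.69% lower of all genes. In the oxidative pentose phosphate pathway, which supplies NADPH, the median of 13 genes was 0.37. G6PD5, a cytosolic glucose-6-phosphate dehydrogenase, was higher at 41.2 CPM in p5cs1-4 control and 18.9 CPM in WT control, and PGL1, a phosphogluconolactonase, lower at 8.66 and 24.7 CPM. Of 7 alternative respiration genes and 15 antioxidant enzymes, 0 were past 2-fold, with medians of 0.10 and -0.15. In nitrogen assimilation ASN1 was the 1 gene of 17 past 2-fold. Among 10 iron deficiency genes, IRT1 was higher on 2 reads in WT control, and BHLH38 and BHLH101, regulators of iron uptake, were lower, at 7.07 and 3.95 CPM in p5cs1-4 control against 16.1 and 10.2 CPM in WT control. Of 8 early flavonoid genes 1, FLS1, was past 2-fold, and the light-signalling factor HY5 stood at 6.78 CPM in p5cs1-4 control and 2.79 CPM in WT control. PPCK1, a kinase of the phosphate list, stood at 17.3 CPM in p5cs1-4 control and 7.22 CPM in WT control, the heat shock gene HSP17.4 at 5.07 and 1.40 CPM, and the cyclin CYCB1;3 at 5.01 and 1.86 CPM. Both glucosinolate lists, plastid fatty acid synthesis, cell wall expansion and the circadian clock had 0 genes past 2-fold, with medians between -0.02 and 0.18.

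**Figure D5:**
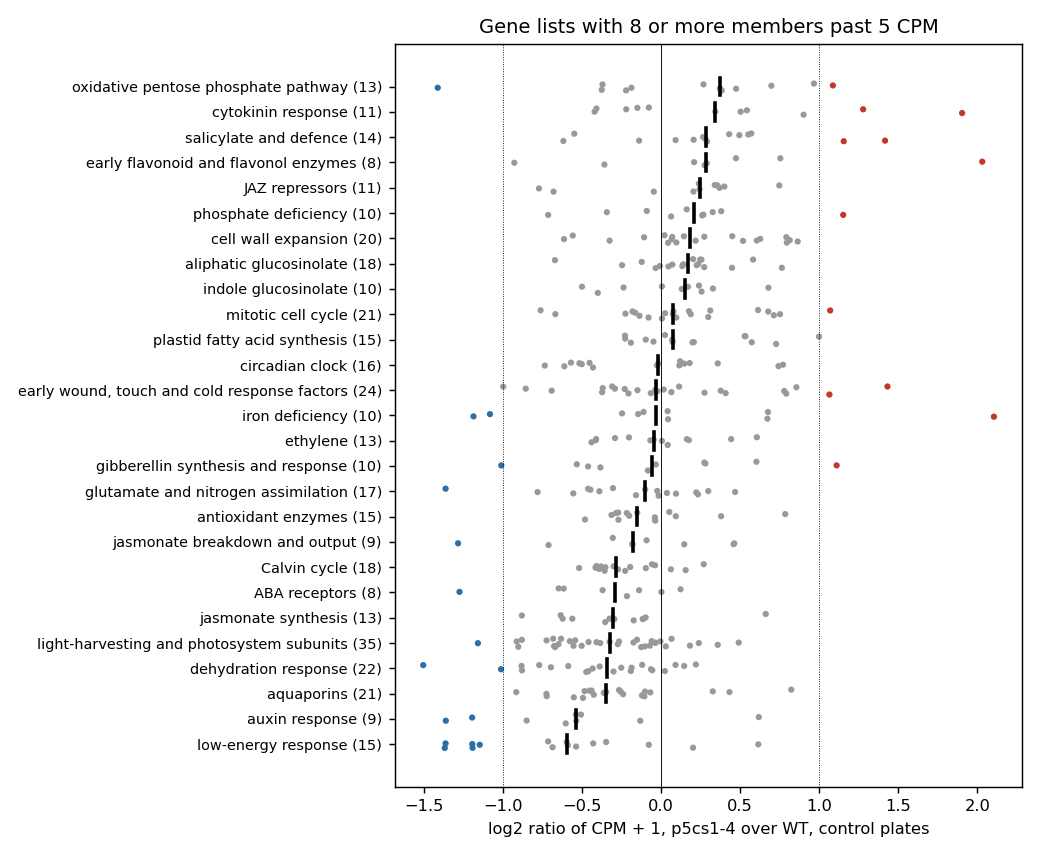
Log2 ratio, p5cs1-4 over WT on control plates, of each member past 5 CPM in lists with at least 8 such members (number in brackets), with the list median as a black bar and members past 2-fold in red or blue. The low-energy list has the lowest median, -0.60, and the oxidative pentose phosphate list the highest, 0.37.

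The genotype comparisons in the other 2 treatments share no library with the control. Of the 620 genes higher in p5cs1-4 control, 573 were past 5 CPM in labelled stress, where 130 (22.7%) were again higher and 26 lower by 2-fold, against 4.32% higher among all genes tested in both. In labelled release 68 of 541 (12.6%) were again higher and 14 lower, against 1.33%. Of the 437 lower genes, 88 of 286 (30.8%) were again lower in labelled stress and 19 higher, against 6.41%, and 31 of 268 (11.6%) were lower in labelled release and 5 higher, against 1.03%. As a share of the other list, the higher genes in common made up 13.3% of those in labelled stress and 23.1% of those in labelled release, and the lower ones 8.16% and 14.2%. Without organelle genes, 98 of 539 higher genes were again higher in labelled stress and 45 of 509 in labelled release. Most called genes, in either direction, were therefore not past 2-fold in the other treatments. The shares of all genes are not matched for level. In control, 16.9% of genes between 5 and 10 CPM were called, against 1.63% between 100 and 500 CPM. The part of level in these shares was not tested.

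In all 3 treatments, 40 of the 620 genes higher in p5cs1-4 control were higher by 2-fold, and 19 of the 437 lower genes were lower. Of the 40, 22 were plastid or mitochondrial genes, and 13 were nuclear genes with most reads at 1 place. Those with a symbol, listed after their values were seen, were HRGP1 (hydroxyproline-rich wall protein), ICL (isocitrate lyase of the glyoxylate cycle), BGLU21 (beta-glucosidase), CNGC19 (cation channel), MSL9 (mechanosensitive channel), SCPL12 and ABCI21. HRGP1 stood at 21.4 CPM in p5cs1-4 control and 5.59 CPM in WT control, ICL at 11.6 and 4.89 CPM, and BGLU21 at 20.2 and 6.75 CPM. In aba2-1 control these stood at 112 (HRGP1), 38.7 (ICL) and 63.1 CPM (BGLU21), above p5cs1-4 control for each. CNGC19, MSL9, SCPL12 and ABCI21 stood at 4.28, 6.14, 2.23 and 4.28 CPM in aba2-1 control, between WT control and p5cs1-4 control. Of the 19 lower genes, 15 had most reads at 1 place, and 4 of these have a symbol: PSBX, DIN10, DIR1 and GATA9. DIR1, a lipid transfer protein of systemic immunity, stood at 63.2 CPM in p5cs1-4 control and 168 CPM in WT control, and the factor GATA9 at 5.66 and 14.0 CPM. In aba2-1 control DIR1 stood at 51.4 CPM and GATA9 at 3.91 CPM, below p5cs1-4 control for both.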

How the data were processed

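Polyadenylated RNA was sequenced from 9 pooled libraries, with 18 cycles of PCR and no molecular identifiers named in the labels' protocols. CASAVA 1.6 and the build TAIR10 are listed, without a role, in the submitters' processing notes. The aligner, the counting and the use of strand are not given in the sources used here. Per the file headers, each deposited table gives the estimated count of reads per gene, the RPKM and the fraction of reads that map to several places. The authors' estimated counts apportion multi-mapping reads, so 92.3% to 95.4% of values were whole within 1e-06, and they were rounded. CPM used TMM factors over the 9 libraries (edgeR 4.0.16, R 4.3.3). A gene was called where the higher library reached 5 CPM and CPM + 1 differed 2-fold. Fold intervals are exact conditional (binomial) and those of P5CS1 levels exact Poisson, at 95%. Alternatives were median-of-ratios scaling (DESeq2 1.42.0), library totals, a pseudocount of 0.1 CPM, a floor of 20 CPM or none, TMM on the 2 control libraries, reads at 1 place, and deposited RPKM.

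Locus tags matched TAIR10.1 for 32709 genes and not for 809. The text names the proline genes, the 12 highest and 12 lowest ratios and the 6 higher and 6 lower called genes of highest level, each with a symbol and under 0.5 of reads multi-mapping, and up to 4 members of each of 38 lists. The single organelle genes named are examples outside this rule. The 38 lists, 4 marker lists and members were chosen with earlier results of these data known. Of the marker lists, root had 1 of 5 members past 5 CPM called higher, leaf and shoot 1 higher and 1 lower of 9, flower 0 of 1, and no seed marker passed 5 CPM. Over all genes, 3.82% were higher and 2.69% lower.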

Additional observations from a re-analysis of the deposited data

Results flagged for a closer look

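For 10 of the proline genes and genes named by ratio or level, the only ones looked at in this way, the difference between p5cs1-4 and WT ran one way in control and the other way in another treatment, with counting intervals that left out 1 on opposite sides; these differences between treatments were not tested, as each value rests on 1 library a side. Log2 ratios, p5cs1-4 over WT, are given. ACD6 was 1.16 in control, -1.99 in labelled stress and -3.22 in labelled release. P5CS1 was -0.64 in control and 1.22 in labelled stress, and PRODH1 -0.58 and 0.35. IRT1 was 2.1 in control and -1.96 in labelled stress, ROPGEF12 -2.96 and 0.86, and WRKY36 -2.14 and 0.82. EARLI1 was 2.89 in control and -1.17 in labelled release, GLR2.2 -2.15 and 0.82, and ZFP5 -2.07 and 0.73. AT5G38710, with proline dehydrogenase activity, was -0.70 in control and 0.62 in labelled release.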

How the results depend on the processing

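No paired analysis was possible because each group is 1 pooled library, which also leaves no replicate to leave out. P5CS1 stayed lower in p5cs1-4 control under each of the 8 alternatives, and the counts of called genes stayed within 1.5 times under the pseudocount, the scalings, reads at 1 place and deposited RPKM. The floor moved them. With no floor, 1774 genes were called in control (1160 higher), 823 in labelled release (495 higher and 328 lower), and 405 and 181 genes called in control were called the same way in labelled stress and labelled release. With a floor of 20 CPM, 306 were called in control (132 higher and 174 lower), 1149 in labelled stress (453 and 696), 165 in labelled release (76 and 89), with 81 and 29 called the same way there. Higher genes were 58.7% of those called in control, 43.1% with the 20 CPM floor and 68.8% with library totals, which shift the median by 0.08. For labelled stress the share was 47.6%, 64.9% with library totals and 61.5% with RPKM, and for labelled release 57.4%, 69.4% with library totals and 46.1% with the 20 CPM floor. The medians of 10 lists changed sign. Those furthest from 0 were cytokinin response, -0.22 with the 20 CPM floor and -0.0083 with RPKM; proline transport, 0.075 with RPKM; and camalexin synthesis, -0.28 with RPKM, where the floor falls on other members. ABA breakdown, at 0.12, was -0.21 with the 20 CPM floor and -0.13 with RPKM. Proline synthesis, early wound factors, ethylene, iron deficiency, the clock and gibberellin, with medians between -0.06 and -0.02, had medians of at most 0.06 with library totals, and some also with RPKM or another floor. Of the 36 genes named by ratio or level, 34 stayed past 2-fold with library totals and with RPKM, STP1 (-0.97 and -0.98) and BT2 (-0.95 and -0.96) falling just short, and 35 with median-of-ratios scaling, GPAT3 falling to 0.998. The low-energy list kept a median between -0.64 and -0.51 and 4 or 5 genes past 2-fold. Chosen after seeing the data, the alternatives without organelle genes and without multi-mapping genes kept each count within 1.5 times. The interval rule, also chosen then, could not change the counts, because every called gene already met it. The 21.5 reads behind 5 CPM in WT control limit low genes most.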
